A study of Mus musculus with 3 samples.

Results

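Liver RNA was read here for 10 genes by which the resident macrophages of the liver, the Kupffer cells, are recognised: Clec4f, Vsig4, Cd5l, Marco, Timd4, Csf1r, Adgre1 and the 3 chains of complement C1q, C1qa, C1qb and C1qc. The genes were chosen by name, with earlier results of these data known. Every probe set whose platform annotation named only 1 of them was taken, which gave 15 probe sets for the 10 genes among 18193 genes on the array. All 10 genes and all 15 probe sets were kept by a filter on dim signals that left 11341 genes, so no member was lost.

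The livers came from male C57BL/6J mice in 3 groups. HF+SFC mice received a high-fat diet (D12492, 60% of energy from fat) with sodium ferrous citrate, an iron salt, added at 0.023% by weight. HF mice received the same high-fat diet without the salt, and Control mice received a diet with 10% of energy from fat (D12450B). The diets were started at 6 weeks of age and given for 15 weeks, whereas the labels give an age of 21 months in each group, which does not match those times. Each group was read on 1 Affymetrix GeneChip array that held the mixed material of its mice, and the number of mice mixed is not stated in the sources used here. With 1 array per group no test between groups was possible. No p-value is given, and a difference here is one between pools, with no replicate check.

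Kupffer cells sit inside the liver sinusoids, where they take up bacteria, aged red cells, apoptotic cells and modified lipoproteins from the portal blood, and they recycle iron from the red cells they digest. They are seeded before birth and renew themselves in place, with survival signals that pass through the CSF1 receptor, and after loss they can be replaced by monocytes that take on the same identity. Clec4f and Timd4 mark the resident cells most closely in the mouse, whereas Csf1r, Adgre1 and the C1q chains are shared with other macrophages.

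The 10 members had a median log2 ratio of 0.31 for HF over Control (1.24-fold higher in HF). For HF+SFC over HF it was -0.38 (1.3-fold lower in HF+SFC). HF+SFC and Control stood close to each other, with a median of -0.10 that became 0.29 when the RNA spikes added before labelling were taken as the scale (the labelling-spike scale below), where all genes shifted by 0.391. Marco, a scavenger receptor for bacteria, stood apart from the other members and was 2.24-fold higher in HF than in Control and, in HF+SFC, 3.53-fold lower than in HF. The other 9 members were between 1.07-fold and 1.47-fold higher in HF than in Control, and between 1.04-fold and 1.53-fold lower in HF+SFC than in HF. Over all 11341 kept genes the median log2 ratios were 0.028, -0.007 and 0.018 for HF over Control, HF+SFC over HF and HF+SFC over Control. In RNA of whole liver, fewer Kupffer cells and less RNA of a gene per Kupffer cell cannot be told apart.

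**Figure D1:**
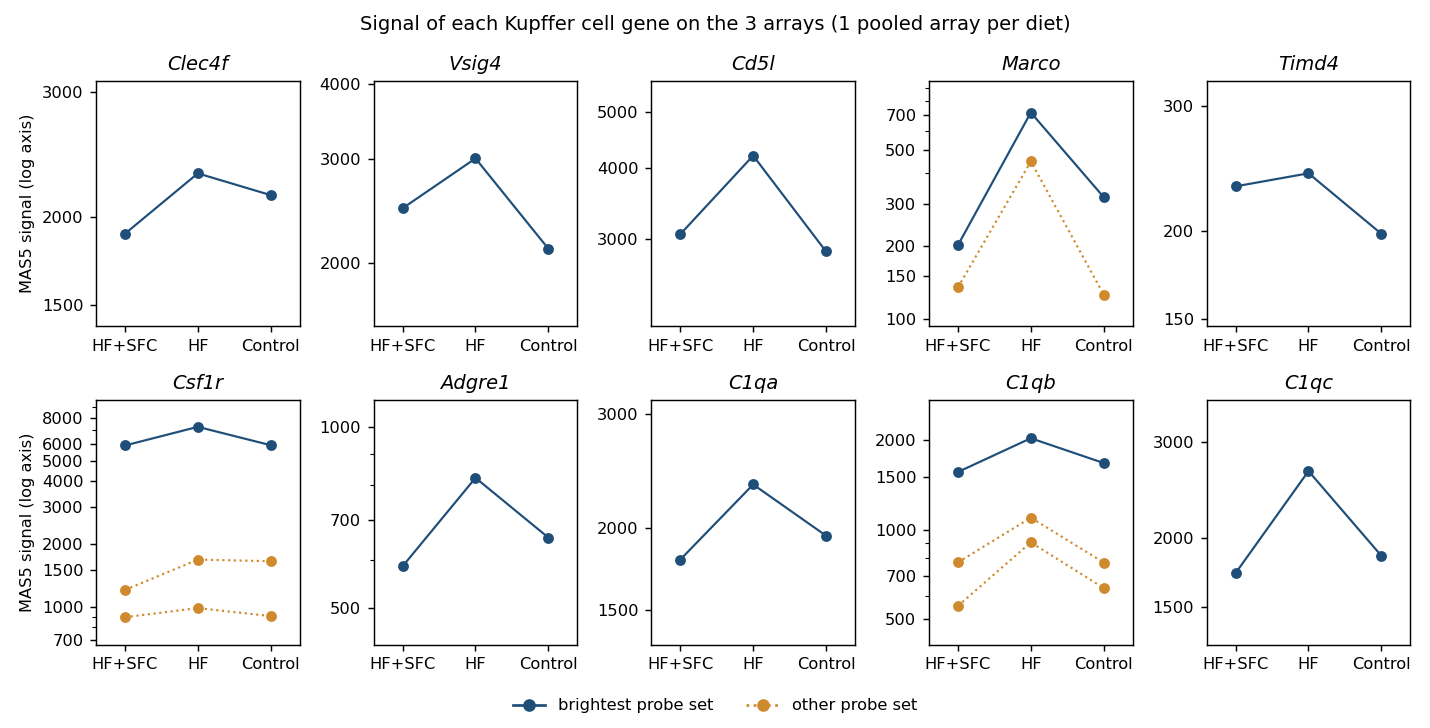
MAS5 signal (y axis, log scale, arbitrary units) of each Kupffer cell gene on the HF+SFC, HF and Control arrays (x axis). Points are single arrays joined per probe set, blue for the brightest probe set and orange for others; as deposited the HF array is the highest in all 10 blue lines (in 9 under quantile, lowess and labelling-spike scaling, without Timd4), and Marco, with 202 in HF+SFC, 714 in HF and 319 in Control, spans the widest range.

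Signals are MAS5 intensities on a linear scale in arbitrary units, and every array as deposited had the same trimmed mean (500.004). They can be set against each other between arrays for a probe set, but not between probe sets. The correlation of log2 signals over kept probe sets was 0.967 for the HF and Control arrays, 0.983 for HF+SFC with HF and 0.968 for HF+SFC with Control. The 10 hepatocyte markers read, among them Alb and Hnf4a, had summed signals of 399300 in HF+SFC, 391630 in HF and 425750 in Control. In place of replicate error the SD of log2 ratios among the probe sets that read 1 gene was used, called the probe-set SD below. This SD compares probe sets on the same arrays, so it holds no variation between mice, pools, labelling or hybridisation. In the upper 25% of signal, where 8 of the members lay, it was 0.196 for HF over Control, 0.172 for HF+SFC over HF and 0.204 for HF+SFC over Control. For Marco and Timd4, below that level, it was 0.480, 0.451 and 0.497.

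Marco encodes a collagen-like scavenger receptor that binds bacteria and particles. By its brightest probe set it had signals of 202 in HF+SFC, 714 in HF and 319 in Control. By the other it had 135 in HF+SFC, 448 in HF and 126 in Control. Both probe sets were highest in HF. The log2 ratio of HF over Control was 1.16 and 1.83 by the 2 probe sets, 2.42 times the probe-set SD by the brightest, and 260 of the kept genes (2.29%) had a higher ratio. For HF+SFC over HF the probe sets stood at -1.82 and -1.73, the brightest at -4.04 times the probe-set SD, and 23 of the kept genes (0.203%) had a lower ratio. Between HF+SFC and Control the probe sets disagreed, with log2 ratios of -0.66 and 0.09. The order of these 2 arrays for Marco therefore depended on the probe set.

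Clec4f, a C-type lectin that binds galactose-bearing glycans and in the mouse is made by Kupffer cells, was the member closest to level between HF and Control. Its signals were 1894 in HF+SFC, 2304 in HF and 2147 in Control. The log2 ratio of HF over Control was 0.10, within 1 probe-set SD. That of HF+SFC over HF was -0.28, beyond it, but -0.03 on the labelling-spike scale, within it. HF+SFC stood at -0.18 against Control, within 1 probe-set SD, and at 0.21 on the labelling-spike scale.

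Timd4, a receptor for phosphatidylserine on apoptotic cells that marks long-lived resident macrophages, had signals of 231 in HF+SFC, 241 in HF and 198 in Control. Its log2 ratios were 0.28 (HF over Control) and -0.06 (HF+SFC over HF). Each was within 1 probe-set SD, which was larger at this low signal, and the second became 0.03 under quantile and 0.02 under lowess scaling. The 3 arrays could not be put in order for Timd4 beyond this spread. Timd4 was read by 1 probe set.

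Vsig4, the complement receptor that takes up C3-coated particles from the blood, had signals of 2475 in HF+SFC, 3002 in HF and 2116 in Control. Cd5l, a secreted scavenger-receptor protein of macrophages that circulates with IgM and is also called AIM, had 3060 in HF+SFC, 4197 in HF and 2855 in Control. As deposited these genes, with Timd4, were the 3 members whose lowest array was Control. HF was 1.42-fold higher than Control for Vsig4 and 1.47-fold for Cd5l, just short of the 1.5-fold limit used in the study, at 2.57 and 2.83 times the probe-set SD. HF+SFC was 1.21-fold lower than HF for Vsig4 and 1.37-fold lower for Cd5l, at -1.62 and -2.65 times the probe-set SD. On the labelling-spike scale these log2 ratios were -0.02 for Vsig4, within 1 probe-set SD, and -0.20 for Cd5l, beyond it. HF+SFC lay above Control by 0.23 on the log2 scale for Vsig4, beyond 1 probe-set SD, and by 0.10 for Cd5l, within it.

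Csf1r, the receptor for CSF1 and IL-34 on which macrophages depend for survival, was read by 3 probe sets. The brightest had 5906 in HF+SFC, 7246 in HF and 5923 in Control, the next 1208 in HF+SFC, 1685 in HF and 1656 in Control, and the dimmest 895 in HF+SFC, 989 in HF and 906 in Control. HF was the highest array in all 3, by little over Control in the second. Log2 ratios of HF over Control were 0.29, 0.03 and 0.13, and those of HF+SFC over HF were -0.30, -0.48 and -0.14. The HF+SFC to Control ratio was 0.997 by the brightest probe set, while the second stood at -0.46 on the log2 scale. As the median of its probe sets Csf1r was at 0.13 for HF over Control.

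Adgre1 encodes F4/80, the adhesion receptor used to stain mouse macrophages. Its signals were 586 in HF+SFC, 822 in HF and 654 in Control. It was 1.26-fold higher in HF than in Control and 1.4-fold lower in HF+SFC than in HF, at 1.68 and -2.84 times the probe-set SD. Next to Marco and C1qc it had the lowest HF+SFC over HF ratio of the members (-0.49).

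C1q is built from 3 different chains and starts the classical complement pathway, and in tissues it also tags dying cells for uptake by macrophages. The genes of the 3 chains lie next to each other on chromosome 4 in the order C1qb, C1qc, C1qa, with no other annotated gene between them in the RefSeq table used. C1qa had signals of 1792 in HF+SFC, 2336 in HF and 1950 in Control. C1qb had 1564 in HF+SFC, 2031 in HF and 1676 in Control, and C1qc 1730 in HF+SFC, 2653 in HF and 1860 in Control. As deposited HF was the highest and HF+SFC the lowest array for each of the 3 chains, but on the labelling-spike scale Control was the lowest for each. HF was higher than Control by 0.26 for C1qa, 0.28 for C1qb and 0.51 for C1qc on the log2 scale. Log2 ratios of HF+SFC over HF were -0.38 for C1qa, -0.38 for C1qb and -0.62 for C1qc, and each of these 6 ratios was beyond 1 probe-set SD. On the labelling-spike scale the HF+SFC over HF ratios were -0.13 for C1qa and -0.12 for C1qb, within 1 probe-set SD, and -0.36 for C1qc, beyond it. HF+SFC and Control differed by -0.12 for C1qa, -0.10 for C1qb and -0.10 for C1qc, within 1 probe-set SD, and by 0.27, 0.29 and 0.29 on the labelling-spike scale. The other 2 probe sets of C1qb stood at 0.50 and 0.51 (HF over Control) and at -0.50 and -0.71 (HF+SFC over HF), farther from 0 than the brightest, and at 0.00 and -0.20 (HF+SFC over Control). They carry the _x_at suffix, which marks probes that may bind other transcripts.

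**Figure D2:**
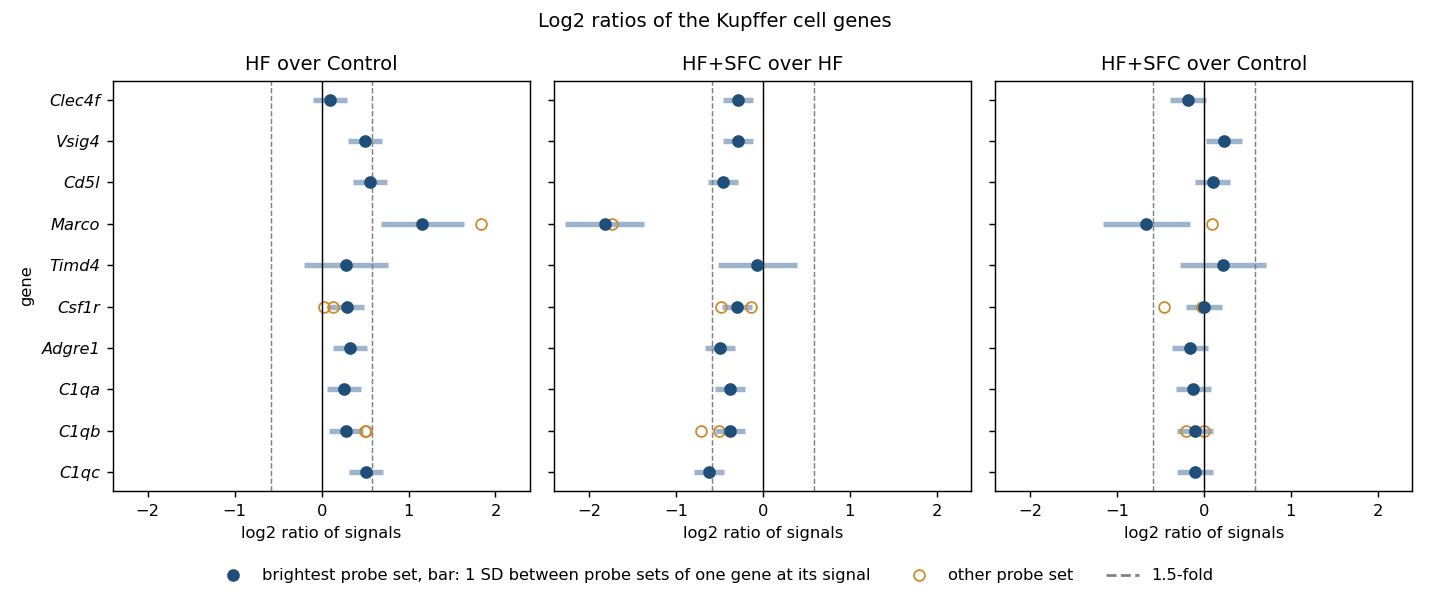
Log2 ratio of signals (x axis) of each Kupffer cell gene (y axis) for HF over Control, HF+SFC over HF and HF+SFC over Control; filled points are the brightest probe sets with bars of 1 probe-set SD, open points other probe sets, and dashed lines 1.5-fold. All filled points lie right of 0 in the left panel, from 0.10 for Clec4f to 1.16 for Marco, and left of 0 in the middle panel, from -1.82 for Marco to -0.06 for Timd4, whose sign turned under quantile, lowess and labelling-spike scaling.

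Counted over the list, 1 of 10 members (Marco) was at least 1.5-fold higher in HF than in Control, where 11.3% of all kept genes were, and 0 were at least 1.5-fold lower, where 5.84% of all were. The share of members past this fold was thus near the background. In HF+SFC against HF, 2 of 10 members (Marco and C1qc) were at least 1.5-fold lower, where 5.33% of all kept genes were, and 0 were higher, where 2.88% of all were. Against Control, 1 of 10 (Marco, by the brightest of its probe sets) was at least 1.5-fold lower in HF+SFC, where 6.88% of all were, and 0 were higher, where 9.2% of all were. The split of all genes moved with the scaling. For HF+SFC over HF it was 3.99% higher and 4.02% lower under quantile, and 3.94% higher and 4.06% lower under lowess scaling. With the spikes added before labelling as the scale it was 8.65% higher and 2.05% lower for HF+SFC over HF, 17.2% higher and 3.62% lower for HF over Control, and 31.1% higher and 1.98% lower for HF+SFC over Control. With the spikes added at hybridisation it was 14.5% higher and 4.39% lower for HF over Control.

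In the upper 25% of signal, which left 8 members, 0 of 8 were at least 1.5-fold higher in HF than in Control (6.5% of all genes there), and 1 of 8, C1qc, was lower in HF+SFC by that fold against HF (1.11% of all). Against Control 0 of 8 were lower in HF+SFC (4.48% of all). At 2-fold Marco alone passed, being higher in HF than in Control (3.45% of all kept genes) and, in HF+SFC, lower than in HF (1.19% of all), and 0 of 10 were lower in HF+SFC than in Control (1.83% of all).

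Directions were counted as well, for members that were chosen with earlier results of these data known. The log2 ratio of HF over Control was above 0 in 10 of 10 members and in 53.1% of all kept genes. That of HF+SFC over HF was below 0 in 10 of 10 and in 51.2% of all, but in 9 of 10, without Timd4, under quantile, lowess and labelling-spike scaling. Of the 15 probe sets, several of which read the same gene, 15 were above 0 for HF over Control (52.3% of all kept probe sets) and 15 below 0 for HF+SFC over HF (53.0%). The HF array gave the highest signal for 10 of 10 members and for 33.8% of kept genes, or for 9 of 10 under the 3 scalings that turned Timd4, but both ratios use that 1 array and are not separate observations. HF+SFC was the lowest array for 7 of 10 members (29.3% of kept genes) and Control for 3 of 10 (41.2%), but on the labelling-spike scale HF+SFC was the lowest for 1 of 10, Marco (5.83%), and Control for 9 of 10 (65.7%). Of 10 ratios, 8 were beyond 1 probe-set SD in HF against Control (46.0% of all kept genes, in either direction) and 9 in HF+SFC against HF (31.6%). On the labelling-spike scale the HF+SFC over HF ratios of Clec4f, Vsig4, Csf1r, C1qa and C1qb came within it. Those of Marco, C1qc, Adgre1 and Cd5l stayed beyond it. For HF+SFC over Control, as deposited, 2 of 10, Marco and Vsig4, were beyond 1 probe-set SD (41.8% of all). That ratio was above 0 in 3 and below 0 in 7 members, against 52.1% and 47.9% of all, but on the labelling-spike scale it was above 0 in 9 and below 0 in 1, against 86.7% and 13.3% of all, and under lowess and hybridisation-spike scaling above 0 in 4 and below 0 in 6. Without Marco the medians were 0.29 for HF over Control, -0.38 for HF+SFC over HF and -0.10 for HF+SFC over Control.

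**Figure D3:**
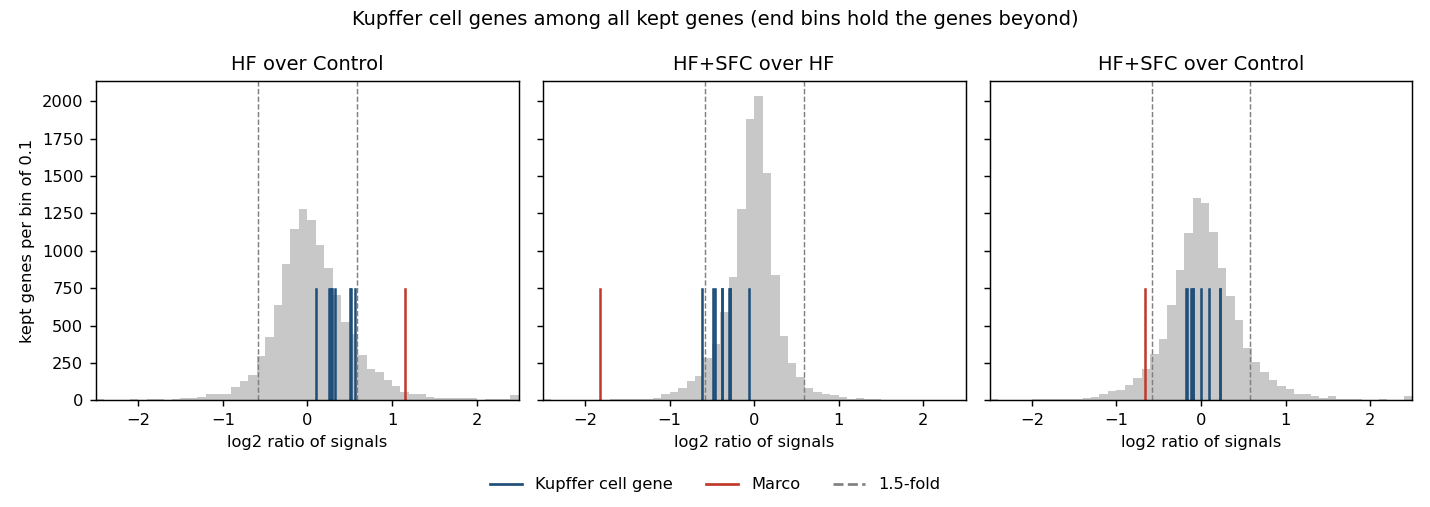
Log2 ratios of signals (x axis) of the 11341 kept genes as grey bars (y axis, genes per bin of 0.1) with the Kupffer cell genes as blue lines and Marco in red, for the 3 comparisons; dashed lines mark 1.5-fold. As deposited all members lie above 0 for HF over Control, with Clec4f at 0.10 near the centre, and below 0 for HF+SFC over HF, with Timd4 at -0.06 near the centre (above 0 under quantile, lowess and labelling-spike scaling) and C1qc at -0.62 the only blue line past 1.5-fold.

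Technical measures also differed between the arrays. The 24 RNA spikes added before labelling had a median log2 ratio of -0.25 for HF+SFC over HF, on the same side of 0 as the members. It was -0.14 for HF over Control, on the other side, and -0.39 for HF+SFC over Control. The 18 spikes added at hybridisation had medians of 0.02 (HF+SFC over HF), -0.08 (HF over Control) and -0.05 (HF+SFC over Control). The ratio of 3′ to 5′ signal of Pcx was 3.89 in HF+SFC, 3.23 in HF and 4.28 in Control, so that it was lowest in HF, where the members were highest. Actb had 1.73 in HF+SFC, 1.65 in HF and 1.84 in Control. The part of these measures in the members' ratios was not tested, although the values with spikes as the scale are given in the closing section.

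Among 18 kept genes of a list of 20 others that are high in Kupffer cells, 7 were at least 1.5-fold higher in HF than in Control and 1 was lower, with a median of 0.37. Of all kept genes 11.3% were higher and 5.84% lower. In HF+SFC against HF 0 were higher and 3 lower (5.33% of all kept genes), with a median of -0.22, and only 1 was lower under quantile, median and lowess scaling. The higher ones included Hpgd, which degrades prostaglandins, at 1.99-fold, Aif1, an actin-binding protein of macrophages, at 1.96-fold, and Vcam1, an adhesion molecule, at 1.89-fold, though the 3 probe sets of Vcam1 lay between 0.40 and 0.92 on the log2 scale. Tyrobp, the signalling adaptor of many myeloid receptors, was 1.61-fold lower in HF+SFC than in HF, Cd68, a lysosomal membrane protein, 1.51-fold, and Aif1 1.5-fold. Not every gene of the list followed the members. Hpgd was also 2.39-fold higher in HF+SFC than in Control, and Id3, a transcriptional regulator on which mouse Kupffer cells depend, was 3.17-fold lower in HF and 3.11-fold lower in HF+SFC than in Control (signals of 1286 in HF+SFC, 1262 in HF and 4004 in Control). Nr1h3, the oxysterol receptor LXRα that maintains Kupffer cell identity in the mouse, stood at 0.01 (HF over Control) and -0.10 (HF+SFC over HF). In whole liver the RNA of the genes of this list, Id3 among them, can also come from other cell types.

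Of the genes upstream and downstream of Csf1r, 9 of 10 were kept. In HF 3 were at least 1.5-fold higher than in Control (11.3% of all kept genes) and 0 lower. In HF+SFC 3 were at least 1.5-fold lower than in HF (5.33% of all) and 0 higher. Tyrobp, 1 of these 3, was also counted in the list above. Spi1, which encodes the myeloid transcription factor PU.1, had signals of 84.7 in HF+SFC, 180 in HF and 88.5 in Control, near the dim limit of 76.9. Irf8, a further myeloid transcription factor, had 159 in HF+SFC, 294 in HF and 194 in Control, and its 2 probe sets stood at -0.89 and -0.70 for HF+SFC over HF. The ligand Csf1 had 269 in HF+SFC, 387 in HF and 267 in Control, inside 1.5-fold, but its 2 probe sets were at -0.52 and 0.06 for HF+SFC over HF. Il34, the other ligand, had 110 in HF+SFC, 108 in HF and 150 in Control. The ligands thus did not share an order of the arrays.

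Pathways by which neighbouring stellate and endothelial cells keep Kupffer cell identity, among them Notch and TGF-β family signalling, were read by 12 of 14 genes. Most of these 12 encode receptors, transducers or targets, such as Tgfbr2 and Hes1, and not the signals themselves. Of the 12 genes 1 passed 1.5-fold upwards and 1 downwards in HF against Control (11.3% and 5.84% of all kept genes). In HF+SFC against HF 0 passed upwards (2.88% of all) or downwards (5.33% of all). The medians for these comparisons were 0.06 and -0.18. Tgfbr2, a TGF-β receptor, had 1402 in HF+SFC, 1825 in HF and 996 in Control. Dll4, the Notch ligand of sinusoidal endothelium, had 81.7 in HF+SFC, 61.0 in HF and 122 in Control, and was dim. Hes1, a Notch target, had 433 in HF+SFC, 517 in HF and 733 in Control.

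The C1q chains were also set beside the rest of the classical complement pathway, most of which hepatocytes secrete, and 7 of 12 listed genes were read. In HF against Control 0 of these 7 passed 1.5-fold upwards (11.3% of all kept genes) or downwards (5.84% of all). Under median centring 1 passed downwards. In HF+SFC against HF 0 passed upwards (2.88% of all) and 1 downwards (5.33% of all), or 0 downwards under quantile and lowess scaling. The 1 gene was the complement inhibitor Cd55 at 1.55-fold, its 3 probe sets from -0.72 to -0.11 on the log2 scale. With so few genes this count was near the background. The medians of HF over Control and of HF+SFC over HF were -0.12 and -0.01. The protease C1ra had 5529 in HF+SFC, 5561 in HF and 8032 in Control, so that Control was its highest array.

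Of the scavenger receptors other than Marco, 11 of 12 were kept, 3 of them higher by 1.5-fold or more in HF than in Control (11.3% of all kept genes) and 0 lower. In HF+SFC against HF, 2 were lower by that fold (5.33% of all), or 1 under quantile, median and lowess scaling, and 0 higher. Cd68, 1 of these 2, was also counted among the other Kupffer cell genes. Cd36, the receptor for fatty acids and oxidised lipoproteins, was 6.29-fold higher in HF than in Control and 4.82-fold higher in HF+SFC than in Control. Msr1, a scavenger receptor of the same class as Marco, had 297 in HF+SFC, 499 in HF and 464 in Control by its brightest probe set, but its 3 probe sets ranged from -0.75 to 0.39 for HF+SFC over HF. The C-type lectins other than Clec4f had 8 of 14 kept, 4 of them at least 1.5-fold higher in HF than in Control (median 0.53, 11.3% of all kept genes). In HF+SFC against HF 2 were lower by that fold (median -0.09, 5.33% of all), or 1 under quantile and lowess scaling and 0 under median centring. Clec7a, the receptor for fungal β-glucan, had 623 in HF+SFC, 958 in HF and 528 in Control.

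Receptors and bridging proteins for the uptake of apoptotic cells, the group to which Timd4 belongs by function, had 11 of 17 kept. In HF against Control 0 passed 1.5-fold in either direction (median 0.01), where 11.3% of all kept genes were higher and 5.84% lower. In HF+SFC against HF 1 was higher (Elmo1, 1.62-fold), where 2.88% of all were, and 0 lower, where 5.33% of all were (median -0.15). Of proteins that bind C1q, 5 of 7 were kept and 0 passed in either comparison, beside the same shares of all genes. Of the iron and heme handling genes listed for macrophages 13 of 15 were kept, but in whole liver their RNA can come from any cell type. In HF against Control 1 was at least 1.5-fold higher (Steap3, 2.05-fold, its 3 probe sets from 0.11 to 1.04), where 11.3% of all kept genes were. By that fold 0 were lower (5.84% of all), or 1 under quantile, median and lowess scaling. In HF+SFC against HF 0 passed upwards (2.88% of all) or downwards (5.33% of all), with a median of -0.06. Slc40a1, the iron exporter ferroportin, stood at -0.08 and Cd163, the haptoglobin-hemoglobin receptor, at -0.16 for HF+SFC over HF.

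Markers of other liver cells were read beside the members, and several lists were also highest in HF. Recruited and lipid-laden macrophages were read by 7 of 13 markers, of which 6 passed 1.5-fold upwards in HF against Control and 1, Cd9, downwards (median 1.13). Of all kept genes 11.3% passed upwards and 5.84% downwards. In HF+SFC 4 of the 7 markers were at least 1.5-fold lower than in HF (median -0.61), where 5.33% of all kept genes were. The summed signal of the 7 markers was 2868 in HF+SFC, 3711.7 in HF and 2747.4 in Control. The brightest probe sets weigh most in such sums. Cd9, the marker that went the other way, made up much of the Control sum, with 677 in HF+SFC, 601 in HF and 1497 in Control. Trem2, Spp1, Itgam and Mmp12, which define such cells, were not among the kept genes. Gpnmb had 77.2 in HF+SFC, 155 in HF and 61.7 in Control, and Itgax, which encodes CD11c, 96.5 in HF+SFC, 194 in HF and 87.7 in Control. Both were dim.

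Stellate cell markers had 7 of 12 at least 1.5-fold higher in HF than in Control (median 0.70), where 11.3% of all kept genes were. In HF+SFC against HF 6 of 12 were lower by that fold (median -0.49), where 5.33% of all were. Both counts hold Pdgfrb, whose 2 probe sets went opposite ways, at 0.78 and -1.88 (HF over Control) and at -0.60 and 2.11 (HF+SFC over HF). The summed signals were 19655 in HF+SFC, 25847 in HF and 17195 in Control. Sinusoidal endothelial markers had 2 of 12 at least 1.5-fold higher in HF than in Control (median 0.24), where 11.3% of all kept genes were. In HF+SFC against HF 1 of 12 was lower by that fold (median -0.23), where 5.33% of all were. For so few genes both counts were near the background. Their summed signals were 13848 in HF+SFC, 15990 in HF and 13979 in Control. The 10 Kupffer cell genes summed to 19440 in HF+SFC, 25545 in HF and 19697 in Control. Hepatocyte markers had medians of -0.11 (HF over Control) and 0.03 (HF+SFC over HF). The part of these other cell types in the ratios of members shared with other macrophages was not tested.

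**Figure D4:**
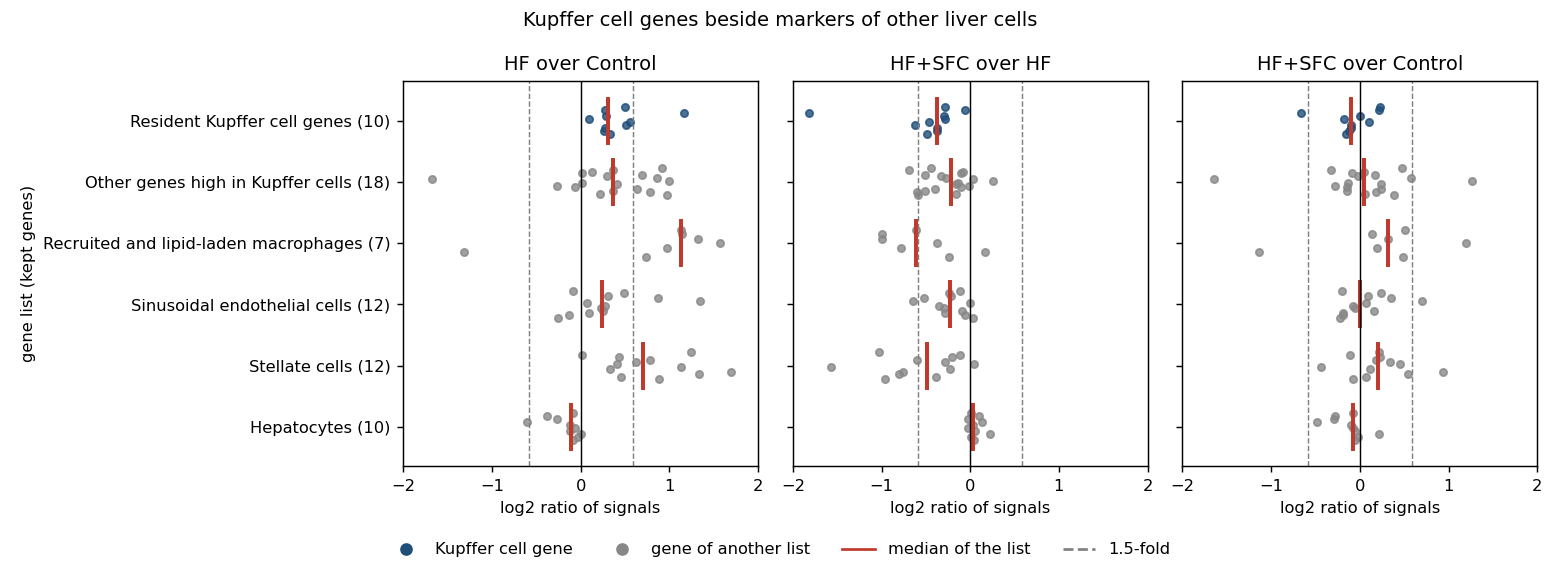
Log2 ratio of signals (x axis) of each kept gene in 6 lists (y axis, kept genes in parentheses) for the 3 comparisons; each point is a gene, a red bar gives the median, and dashed lines mark 1.5-fold. The median of the Kupffer cell genes lies at 0.31, -0.38 and -0.10, in the first 2 panels between that of hepatocyte markers (-0.11, 0.03 and -0.08) and that of recruited macrophage markers (1.13 and -0.61).

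The 5 genes most like the members were sought among 5017 other genes with 2 or more kept probe sets, by the Euclidean distance of log2 signals centred over the 3 arrays from the mean profile of the members. They were Dclre1b (distance 0.013), Maf (0.016), Rrp1b (0.018), Cul5 (0.030) and Ankrd12 (0.036). Likeness over 3 arrays is weak, and 108 of these genes (2.15%) were nearer than the members' own median distance of 0.141, while Marco lay at 0.931. The other probe sets of the 5 genes often stood elsewhere. Maf, a transcription factor, had signals of 3002 in HF+SFC, 4203 in HF and 3131 in Control by its brightest probe set, but its 5 probe sets ranged from -0.25 to 0.63 for HF over Control. Ankrd12 was the only one of the 5 whose probe sets all lay on the same side of 0 in both comparisons, from 0.38 to 0.80 and from -0.69 to -0.49.

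Promoter sequences from RefSeq (GRCm38.p6) were matched to 7 of the 10 members. The members without an entry were C1qa, Csf1r and Adgre1. Shown are the 250 bases before the start site for the 2 members past 1.5-fold in HF+SFC against HF, Marco (chr1:120505025-120505274, minus strand) and C1qc (chr4:136892915-136893164, minus strand), and for C1qb, the neighbour of C1qc (chr4:136886201-136886450, minus strand). Capitals mark a match to the motif of PU.1, a myeloid transcription factor.
Marco: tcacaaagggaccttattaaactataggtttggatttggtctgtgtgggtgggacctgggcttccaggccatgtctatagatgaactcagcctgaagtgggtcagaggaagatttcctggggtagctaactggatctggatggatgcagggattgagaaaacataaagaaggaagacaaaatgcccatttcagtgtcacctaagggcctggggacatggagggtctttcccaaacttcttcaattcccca
C1qc: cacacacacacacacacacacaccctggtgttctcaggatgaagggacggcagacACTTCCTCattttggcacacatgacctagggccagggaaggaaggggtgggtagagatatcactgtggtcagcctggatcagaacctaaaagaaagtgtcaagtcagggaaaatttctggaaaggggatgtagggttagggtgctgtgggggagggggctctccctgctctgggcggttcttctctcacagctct
C1qb: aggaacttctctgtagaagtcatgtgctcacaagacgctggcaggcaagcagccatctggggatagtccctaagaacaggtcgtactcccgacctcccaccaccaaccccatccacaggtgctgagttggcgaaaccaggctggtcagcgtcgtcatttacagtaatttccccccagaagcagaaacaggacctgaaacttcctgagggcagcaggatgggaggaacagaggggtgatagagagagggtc

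Motifs of factors known in Kupffer cells were searched on both strands in 250 bases before to 50 after the start site, in these 7 promoters and in all 32851 of the table. PU.1 (GAGGAAGT) was found in 1 of 7, that of C1qc, its first base at -195 from the start site, on the strand opposite to the gene, and in 3.2% of all promoters. MAF (TGCTGAC) was found in 1 of 7, that of Timd4, and in 4.67% of all. RBPJ (GTGGGAA, 6.38% of all), the LXR element (0.0213% of all) and the IRF element (3.44% of all) were found in 0 of 7. The 2 matches were in different promoters and so did not overlap. A match describes the letters in this window and not binding.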

How the data were processed

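Liver RNA was hybridised to 3 Affymetrix mouse arrays, 1 pool per diet. The deposited values are intensities that the authors made with MAS5, as the submitters' processing notes say, and every array has the same trimmed mean. The sources used here give no MAS5 version, and neither detection calls nor scanner files were used. Of 45037 probe sets other than 64 controls, 34945 named 1 gene, 932 several and 9160 none in the annotation used. Entrez identifiers of 34741 were found in RefSeq, with 0 differing symbols. Log2 ratios of deposited signals were computed in Python 3.11.15. A gene was read by the probe set with the highest log2 signal averaged over the 3 arrays and kept in the upper 50% (signal of 76.9 or more). Genes past 1.5-fold were counted. All members were named, and of each other list up to 4 kept genes of largest log2 ratio per comparison, and the 5 other genes nearest to the members' mean profile. Alb, Nr1h3, Pdgfrb and Slc40a1 were named besides, chosen after their values were seen. The members and lists were chosen with earlier results of these data known. Some genes stand in more than 1 list, so the counts of different lists are not separate observations. The steps were tested on simulated data. Precision is limited by 1 array per group. Alternatives were other scalings, filters, floors, pseudocounts, probe sets and a 2-fold threshold. Values of the 2 spike scalings and without Marco were added after seeing the data.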

Additional observations from a re-analysis of the deposited data

How the results depend on the processing

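No paired analysis was possible because each group has 1 array. Under 12 alternatives the median of the members stayed between 0.25 and 0.45 for HF over Control and between -0.42 and -0.13 for HF+SFC over HF, and it went from -0.12 to 0.29 for HF+SFC over Control. Counts of members moved as follows. For HF over Control, members at least 1.5-fold higher numbered 2 under lowess scaling (9.71% of all kept genes) and 0 without Marco. In the upper 25% of signal (8 members) they numbered 0 (6.5% of all). They numbered 4 with either set of spikes as the scale, added at hybridisation (14.5% of all) or before labelling (17.2%). For HF+SFC over HF, members at least 1.5-fold lower numbered 1 under median centring (4.51% of all kept genes) and in the upper 25% of signal (1.11%). They also numbered 1 at 2-fold (1.19%), on the scale of spikes added before labelling (2.05%) and without Marco. For HF+SFC over Control, members at least 1.5-fold lower numbered 0 in the upper 25% of signal (4.48% of all genes there) and at 2-fold (1.83% of all). They also numbered 0 as the median over probe sets, without Marco and with spikes added before labelling (1.98%). That spike scale moved the median of all genes by 0.141, 0.254 and 0.391 for HF over Control, HF+SFC over HF and HF+SFC over Control. On it the members had a median of 0.29 against Control in HF+SFC, where all genes had 0.409, and 2 were at least 1.5-fold higher (31.1% of all). Timd4 stood at 0.19 for HF+SFC over HF on it, where all genes had 0.247. The probe-set SD was 1.106, 1.054 and 1.125 for the 3 comparisons without a filter and 0.196, 0.172 and 0.204 in the upper 25% of signal. The cause of these moves was not tested beyond the smaller number of members that a filter or a left-out gene gives. There were 321 single values of members under alternatives. Of those past 1.5-fold as deposited, which were only Marco and, for HF+SFC over HF, C1qc, 0 changed sign. Among the smaller ratios the sign turned in 7 values on the labelling-spike scale and 2 under lowess scaling. It also turned in 1 value each under quantile and hybridisation-spike scaling. By the SD over all kept probe sets (0.354, 0.328 and 0.362 for the 3 comparisons) 11 values moved, 10 of them with spikes added before labelling. In the upper 25% of signal, where 8 members lay, the shift on that spike scale was larger than the SD in 2 comparisons. It was 0.254 against 0.172 for HF+SFC over HF, and 0.391 against 0.204 for HF+SFC over Control. On the same spike scale, counts of listed genes at least 1.5-fold lower in HF+SFC than in HF became 0 for other Kupffer cell genes, scavenger receptors, C-type lectins, classical complement and sinusoidal endothelium, 2 for recruited macrophages and 3 for stellate cells. Genes for uptake of apoptotic cells at least 1.5-fold higher in HF than in Control numbered 3 on it and 2 with hybridisation spikes. Depth is unknown for array signals, and dim genes are the least precise.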

Other observations

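Blood and immune cell markers outside the macrophage lists did not share 1 order of the arrays. Neutrophil markers were read by 3 of 8 genes, and 2 were at least 1.5-fold higher in HF+SFC than in HF, where 2.88% of all kept genes were. These were S100a9 (137 in HF+SFC, 75.5 in HF and 80.5 in Control) and Csf3r (215 in HF+SFC, 131 in HF and 128 in Control). S100a8, the partner of S100a9, had 158 in HF+SFC, 209 in HF and 116 in Control. Ccl5, a chemokine of T and NK cells, had 146 in HF+SFC, 754 in HF and 293 in Control, and was 5.16-fold lower in HF+SFC than in HF. Cd8a, a marker of cytotoxic T cells, had 196 in HF+SFC, 145 in HF and 165 in Control, and most lymphocyte markers were not kept (3 of 12 were). Batf3, a transcription factor of cross-presenting dendritic cells, had 30.5 in HF+SFC, 138 in HF and 109 in Control, and its HF+SFC value lay below the dim limit of 76.9. The platelet chemokine Pf4 had 299 in HF+SFC, 365 in HF and 253 in Control. Each of these genes was read by 1 kept probe set.

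Cholangiocyte markers were read by 3 of 7 genes. Krt19 had 56.4 in HF+SFC, 105 in HF and 80.4 in Control, and Sox9 122 in HF+SFC, 91.9 in HF and 163 in Control, so that HF was the highest array for Krt19 and the lowest for Sox9.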
